A study of Homo sapiens with 6 samples.

Results

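The genes described here encode the enzymes that take methyl groups off lysine 4 of histone H3 (H3K4), together with a pair of corepressors that work with one of them. They were chosen by gene symbol, as KDM5A, KDM5B, KDM5C, KDM1A, KDM1B, RIOX1, KDM2B, RCOR1 and RCOR3, which are 9 of the 56832 rows of each count table. Each symbol occurred once in every table, and all 9 genes passed the filter on low counts, as did 17415 rows in all. Poly(A) RNA-seq was run on HEK293T, a line derived from human embryonic kidney, after knockout of GLO1, the gene of an enzyme that clears methylglyoxal. One group of 3 libraries came from untreated GLO1 KO cells, with library numbers 1, 2 and 4. The other group of 3 came from GLO1 KO cells given 0.2 mM MGO (methylglyoxal, a reactive dicarbonyl that modifies proteins such as histones) overnight, with library numbers 1, 3 and 4. Both groups carried the knockout, no wild-type cells were analysed here, and the labels do not say whether the knockout line was 1 clone. By its title, the series concerns crosstalk between glycation of histone H3 and H3K4me3, and the comparison described here is how RNA of the demethylase genes differed with and without MGO.

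H3K4 methylation is removed by enzymes of different chemistry. KDM5 enzymes belong to the JmjC family, which uses iron and 2-oxoglutarate, and they act on the trimethyl and dimethyl forms, H3K4me3 being a mark of active promoters. KDM1A (LSD1) and KDM1B (LSD2) are FAD-dependent amine oxidases that act on the dimethyl and monomethyl forms, and KDM1A needs a CoREST protein such as RCOR1 to work on nucleosomes. RIOX1 and KDM2B are JmjC proteins with other main activities, for which H3K4 demethylation has also been reported.

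KDM5A, KDM5B and KDM5C all rose in MGO, and the stretches before their starts are shown because the 3 paralogs moved the same way by different amounts. KDM1B, which fell, is shown beside them. Each sequence is the 250 bases before the RefSeq start of the gene on GRCh38.p14, read 5′ to 3′ on the gene's strand, and capitals mark every match to GGGCGG (the GC box bound by SP1-type factors) or its reverse complement CCGCCC. KDM5A lies at chr12:389321-389570 (minus strand), KDM5B at chr1:202808422-202808671 (minus), KDM5C at chrX:53225208-53225457 (minus) and KDM1B at chr6:18155172-18155421 (plus).
KDM5A promoter: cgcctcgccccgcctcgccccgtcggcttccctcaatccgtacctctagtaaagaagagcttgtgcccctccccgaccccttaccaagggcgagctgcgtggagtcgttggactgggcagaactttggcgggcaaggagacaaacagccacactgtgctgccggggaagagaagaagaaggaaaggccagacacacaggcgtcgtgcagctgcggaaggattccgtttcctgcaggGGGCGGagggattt
KDM5B promoter: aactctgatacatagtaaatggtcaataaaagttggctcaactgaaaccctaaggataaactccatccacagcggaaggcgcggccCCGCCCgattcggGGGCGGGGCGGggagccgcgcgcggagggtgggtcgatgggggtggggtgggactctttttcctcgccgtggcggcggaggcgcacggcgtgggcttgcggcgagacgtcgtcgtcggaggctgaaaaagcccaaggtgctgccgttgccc
KDM5C promoter: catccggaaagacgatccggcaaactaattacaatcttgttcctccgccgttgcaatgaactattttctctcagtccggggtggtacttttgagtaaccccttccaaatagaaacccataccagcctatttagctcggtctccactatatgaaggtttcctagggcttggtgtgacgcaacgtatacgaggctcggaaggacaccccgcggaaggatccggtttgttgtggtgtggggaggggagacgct
KDM1B promoter: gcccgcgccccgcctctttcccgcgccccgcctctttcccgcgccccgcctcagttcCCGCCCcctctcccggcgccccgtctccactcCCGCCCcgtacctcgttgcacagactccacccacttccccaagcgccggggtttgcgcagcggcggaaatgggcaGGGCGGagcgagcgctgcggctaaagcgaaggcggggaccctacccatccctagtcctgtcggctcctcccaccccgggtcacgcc
KDM5A held 1 GC box, beginning 14 bases before the start. KDM5B held 3, beginning 164, 151 and 146 bases before it, the last pair sharing a base. KDM1B held 3, beginning 193, 161 and 86 bases before the start. KDM5C held none. Both strands were also searched for CCAAT (32% of 35114 listed promoters of this length), CCGGAAG (an ETS core, 8.52%), TGANTCA (an AP-1 site, 6.57%), TGACGTCA (a cAMP response element, 1.65%), TGATGNAA (an ATF4 site, 3.14%), CACGTG (an E-box, 6.35%) and AAGATGG (a YY1 motif, 3.70%). These 4 windows held none of those letters, while the GC box occurred in 42.6% of all listed promoters. The windows of KDM5A, KDM5B, KDM5C and KDM1B had 62%, 64%, 51.2% and 73.6% G and C, against a median of 58% over all listed promoters. A match or its absence describes these letters in this window only. Promoters were listed for 8 of the 9 genes, RIOX1 being the one without an entry.

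The libraries differed in depth along with treatment, and most genes differed between the groups. Totals ran from 19195920 to 45910040 counts, with a mean in MGO that was 0.455 times that in untreated cells, so depth and treatment cannot be told apart. Each of the 9 genes had between 410 and 17936 counts in every library, which keeps counting error small at either depth. Mitochondrial genes took 4.20% to 5.42% of counts in untreated and 5.34% to 8.17% in MGO libraries, the highest share being that of MGO library 1. GLO1 itself had 1969 to 3048 counts in every library, which does not check the knockout, since a gene-level count can miss a short deletion. Scaled for depth, GLO1 RNA was called higher with MGO, the mean going from 48.1 to 140 CPM (2.92-fold, adjusted p = 6.96e-25). All 5 epithelial markers searched (EPCAM, CDH1, KRT8, KRT18, KRT19) were above 1 CPM in every library, as were 6 of 7 embryonic kidney markers, PAX8 being the one that was not. Of 7 markers of blood, endothelium and fibroblasts, COL1A1 was the one above 1 CPM in every library. Summed over its list, the epithelial level was 958 to 991 CPM in untreated and 1374 to 1403 CPM in MGO libraries, and the kidney level 83.3 to 89.0 and 50.8 to 55.5 CPM. Most of the epithelial sum was KRT8 (mean 525 and 824 CPM). Of the 5 epithelial markers 4 were called higher, while CDH1 was called lower (10.3 to 4.95 CPM). The largest part of the kidney sum was GATA3 (mean 37.9 and 34.8 CPM). All 6 kidney markers tested were called lower, as were 41.2% of all genes tested. Of these markers 4 fell at least 2-fold, as did 16.7% of all genes tested, PAX2 going from 13.2 to 2.78 CPM. The list of other cell types summed to 22.8 to 24.3 and 11.1 to 12.7 CPM, most of it COL1A1 (mean 22.8 and 11.5 CPM). The part of these markers in the results was not tested. Values below are TMM-scaled CPM (counts per 1000000 after a common scaling for library composition) as mean ± SD with n = 3, and adjusted p comes from edgeR's quasi-likelihood test over all genes tested. In bulk RNA, fewer cells carrying a transcript and less of it per cell cannot be told apart. Separate cultures are not named in the labels, and the p-values therefore reflect library-to-library spread that may be technical.

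Of the 9 genes, 5 were higher in MGO and 4 lower (adjusted p under 0.05), and in all 9 the 3 MGO libraries lay apart from the 3 untreated ones. Over all genes tested, 83.1% were called (41.8% higher and 41.2% lower) and 83.5% did not overlap between groups, so being called is close to the rule in this comparison and says little about these genes. The size and direction within families is what differed. The KDM5 genes rose, both KDM1 genes, RIOX1 and KDM2B fell, and the CoREST genes RCOR1 and RCOR3 rose slightly. The median log2 fold change was 0.23 over the 9 genes and 0.01 over all genes tested.

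**Figure D1:**
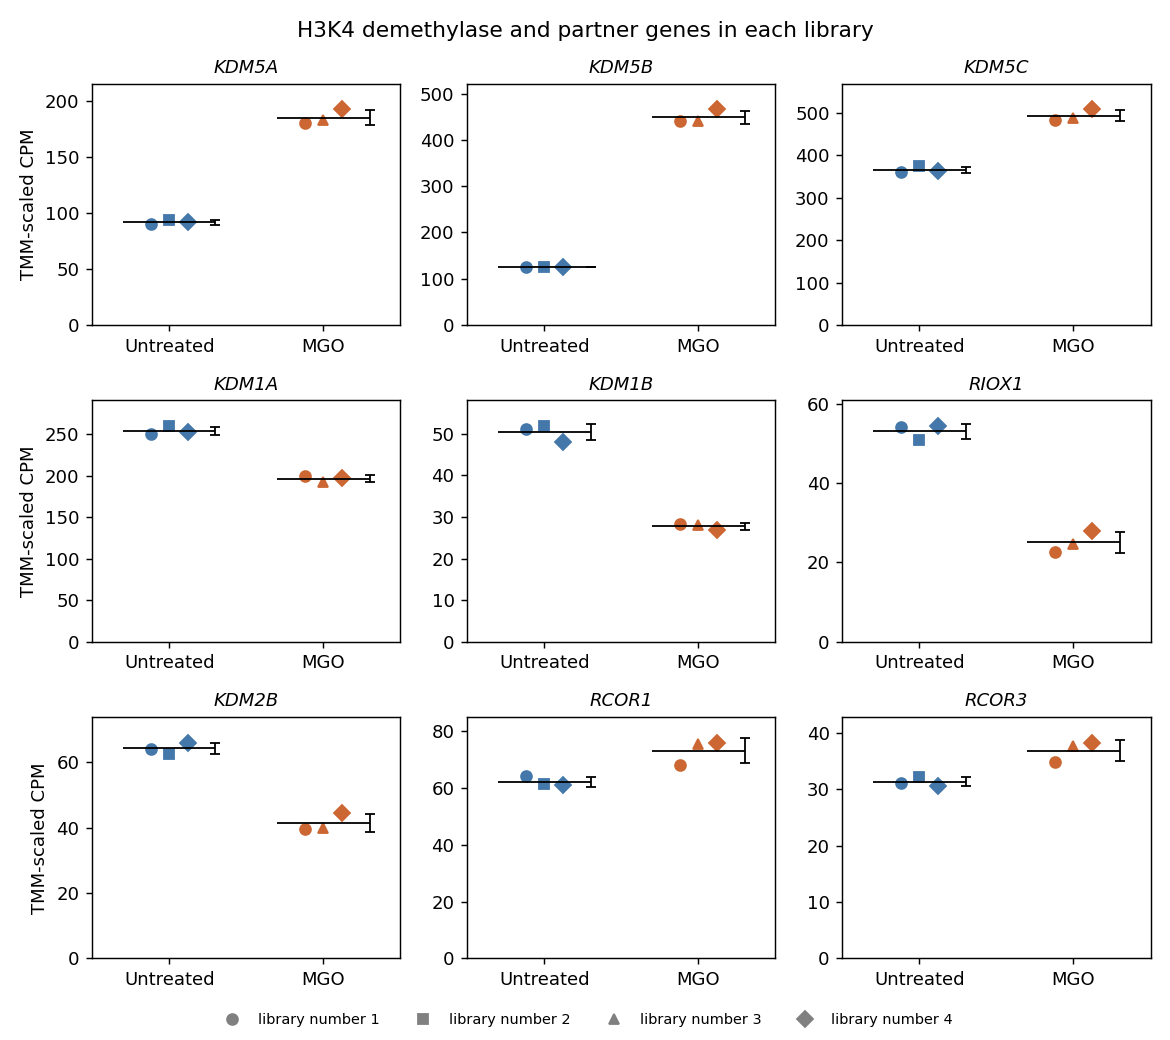
TMM-scaled CPM (vertical axis, from 0) of each of the 9 genes in every library, with blue for untreated and orange for MGO and the shape giving the library number. Horizontal lines are group means and the bars beside them ± SD (n = 3). No panel has overlapping groups, and KDM5B shows the widest gap, at 124 to 126 CPM in untreated and 440 to 465 CPM in MGO libraries.

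KDM5B, a JmjC demethylase of H3K4me3 also known as JARID1B or PLU-1, rose most. Its raw counts were 5772, 5990 and 5352 without MGO (libraries 1, 2 and 4) and 7978, 8193 and 9797 with MGO (libraries 1, 3 and 4). The MGO counts were thus higher even before any correction for the shallower libraries (1.52 times the untreated mean), and KDM5B was the only one of the 9 genes for which this held. As CPM the values were 124, 125 and 126 in untreated and 441, 440 and 465 in MGO libraries. Untreated libraries differed by an SD of 0.504% of their mean and MGO libraries by 3.24%. The rise was 3.59-fold (log2 fold change 1.84, 95% interval 1.77 to 1.92, adjusted p = 2.8e-28), more positive than that of 89.4% of all genes tested.

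KDM5A, the retinoblastoma-binding paralog (RBP2), rose 2.02-fold. Its values were 89.5, 93.9 and 91.5 CPM in untreated libraries 1, 2 and 4, and 180, 182 and 192 CPM in MGO libraries 1, 3 and 4. The lowest MGO library stood far above the highest untreated one (log2 fold change 1.01, SE 0.039, adjusted p = 5.81e-21). KDM5A and KDM5B were the members called higher by at least 2-fold, a size that 19.8% of all genes tested reached in that direction.

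KDM5C, the X-linked paralog mutated in a form of intellectual disability, rose least of the KDM5 genes. It stood at 360, 375 and 363 CPM in untreated and at 484, 489 and 509 CPM in MGO libraries. The groups were well apart, and the rise was 1.35-fold (log2 fold change 0.43, SE 0.035, adjusted p = 9.05e-13). With no filter on low counts its log2 fold change was 0.25, still called, and against a fold of 1.5 it was not called (adjusted p = 1). No exon of KDM5C overlaps an exon of another gene in GENCODE release 29.

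**Figure D2:**
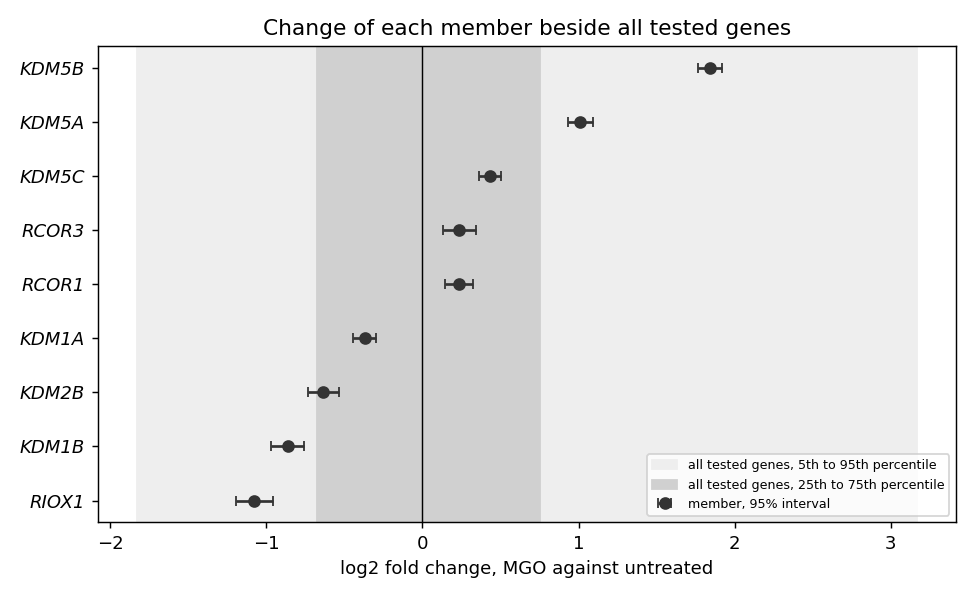
Log2 fold change of MGO against untreated (horizontal axis) for the 9 genes, as points with 95% intervals from edgeR. The grey bands hold the middle 50% (-0.67 to 0.75) and the middle 90% (-1.83 to 3.16) of all genes tested. KDM5B, KDM5A, KDM1B and RIOX1 lie outside the darker band, and none of the 9 lies outside the lighter one.

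The KDM5 genes did not rise in step. Within a library, the ratio of 2 genes' counts is free of depth and scaling, though not a ratio of levels, since the genes differ in length. KDM5B had 1.39, 1.33 and 1.37 times the counts of KDM5A in untreated libraries 1, 2 and 4, and 2.45, 2.41 and 2.42 times in MGO libraries 1, 3 and 4. That ratio was thus 1.78-fold higher in MGO, a log2 difference of 0.83 beside SDs of 0.032 and 0.011 within the groups (n = 3 each). KDM5B to KDM5C went from 0.346, 0.334 and 0.347 to 0.911, 0.8998 and 0.915, or 2.66-fold. KDM5A to KDM5C went from 0.249, 0.251 and 0.252 to 0.372, 0.373 and 0.378, or 1.49-fold. In each of these 3 ratios the groups were apart by many times their spread. With 3 libraries against 3, the two-sided exact permutation test gave p = 0.1 for each, the smallest it allows, and 0.12 after Benjamini-Hochberg adjustment over the 6 ratios computed.

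The FAD-dependent demethylases fell, KDM1B more than KDM1A. KDM1A, the catalytic core of the CoREST complex, stood at 250, 260 and 252 CPM in untreated libraries 1, 2 and 4, and at 200, 192 and 197 CPM in MGO libraries 1, 3 and 4. Its fall was small, 1.29-fold, but clear of the spread (log2 fold change -0.37, SE 0.037, adjusted p = 8.68e-11). KDM1B, which does not bind CoREST and is known for its part in setting imprints in oocytes, stood at 51.2, 51.8 and 48.1 CPM in untreated and 28.3, 28.1 and 26.8 CPM in MGO libraries. Its fall was 1.82-fold (log2 fold change -0.86, SE 0.051, adjusted p = 4.13e-16). KDM1A had 4.88, 5.01 and 5.25 times the counts of KDM1B in untreated and 7.06, 6.83 and 7.35 times in MGO libraries, a 1.40-fold shift without overlap (exact permutation p = 0.1, adjusted 0.12). Against a fold of 1.5 the call on KDM1B held (adjusted p = 2.19e-06) and that on KDM1A was lost (adjusted p = 1).

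RCOR1 and RCOR3, CoREST proteins that join KDM1A to histone deacetylases, rose slightly and by the same amount. RCOR1 stood at 64.1, 61.4 and 60.9 CPM in untreated and at 67.9, 75.5 and 75.7 CPM in MGO libraries. RCOR3 stood at 31.2, 32.3 and 30.7 CPM in untreated and at 34.8, 37.7 and 38.2 CPM in MGO libraries. In both genes MGO library 1 was the lowest of its group, but above every untreated library. The log2 fold change was 0.23 for each (RCOR1 SE 0.045, adjusted p = 1.78e-05; RCOR3 SE 0.052, adjusted p = 0.000134). These are the least secure of the 9 changes. With no filter on low counts the log2 fold change was 0.05 in both and the calls were lost (adjusted p = 0.346 for RCOR1 and 0.425 for RCOR3). With library size as the only scaling it was 0.13 in both (adjusted p = 0.0204 and 0.0355), in a range over alternatives of 1.65e-08 to 1 for RCOR1 and 1.85e-05 to 1 for RCOR3.

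The ratio of RCOR1 to RCOR3 was alike in both groups, while that of KDM1A to RCOR1 was lower in each MGO library. RCOR2, listed among the partners of KDM1A and CoREST, was in neither ratio. It was also called higher (8.66 to 11.4 CPM, log2 fold change 0.40, adjusted p = 4.33e-05). RCOR1 had 2.05, 1.90 and 1.99 times the counts of RCOR3 in untreated libraries 1, 2 and 4, and 1.95, 2.00 and 1.98 times in MGO libraries 1, 3 and 4. The MGO values all lay within the untreated range, the log2 difference was -0.0010, and the exact permutation p was 1. KDM1A had 3.90, 4.22 and 4.14 times the counts of RCOR1 in untreated and 2.94, 2.54 and 2.60 times in MGO libraries. That ratio was 1.52-fold lower in MGO, without overlap (exact permutation p = 0.1, adjusted 0.12).

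**Figure D3:**
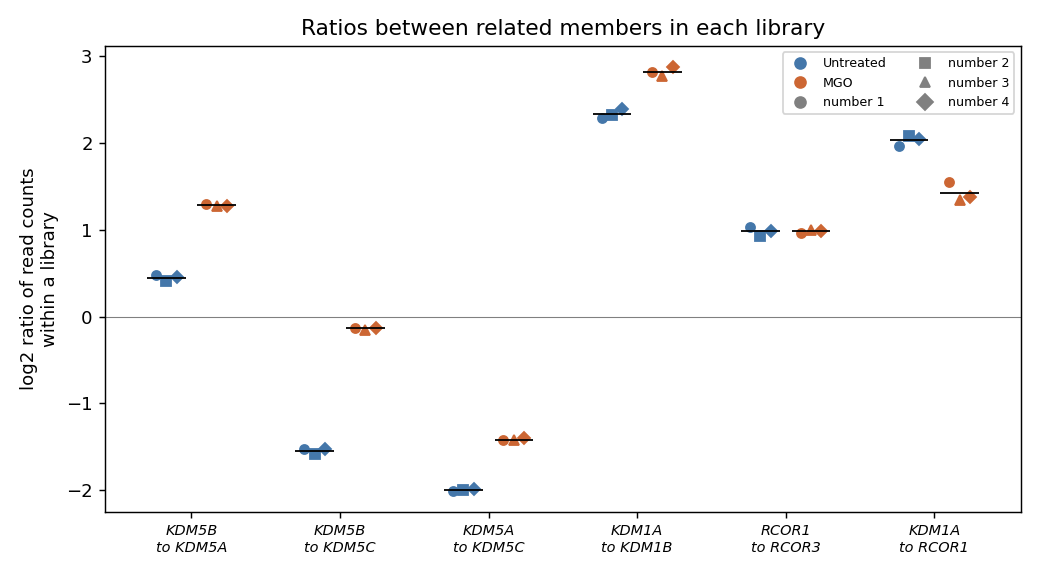
Log2 ratio of the read counts of 2 genes within each library (vertical axis), for 6 pairs, with blue for untreated and orange for MGO, shapes for library numbers and horizontal lines for group means. The groups are apart for 5 pairs and overlap for RCOR1 to RCOR3, whose means were 0.98 in both groups.

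RIOX1, a nucleolar JmjC oxygenase (NO66) that hydroxylates a ribosomal protein, fell most. It stood at 54.1, 50.9 and 54.4 CPM in untreated libraries 1, 2 and 4, and at 22.7, 24.7 and 27.9 CPM in MGO libraries 1, 3 and 4. MGO libraries varied more for RIOX1 than for any other member (SD of 10.5% of the mean), and the one with the highest mitochondrial share was the lowest. The part of that share in the result was not tested, and without MGO library 1 the log2 fold change was -1.03. With all libraries the fall was 2.11-fold (log2 fold change -1.08, SE 0.058, adjusted p = 5.59e-17). It was the one member called lower by at least 2-fold, a size that 16.7% of all genes tested reached in that direction. RIOX1 shares 84 exon bases with HEATR4 on the other strand, and HEATR4 had 4 to 11 counts per library, at most 2.20% of those of RIOX1.

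KDM2B, a JmjC protein whose zinc finger binds unmethylated CpG islands and which brings a variant Polycomb complex to them, also fell. It stood at 64.2, 62.6 and 65.9 CPM in untreated and at 39.6, 39.9 and 44.5 CPM in MGO libraries. The fall was 1.55-fold (log2 fold change -0.63, SE 0.048, adjusted p = 1.9e-13), and against a fold of 1.5 it was not called (adjusted p = 0.111). KDM2B shares 439 exon bases, 3.22% of its exons, with RNF34 on the other strand. RNF34 moved the opposite way, by a log2 fold change of 0.51 (49.5 and 70.3 CPM, adjusted p = 6.27e-12). KDM5A likewise shares 182 exon bases with CCDC77 on the other strand, which was higher by 0.36 on the log2 scale (15.2 and 19.5 CPM, adjusted p = 9.77e-06). No source used here says whether strand was used in counting, and reads in the shared bases may have gone to either gene.

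Set on a per-length scale, the order of the 9 transcripts changed between groups. RPKM here is TMM-scaled CPM per kilobase of exons of coding transcripts in GENCODE release 29. In untreated libraries KDM1A was highest at 81.2 ± 1.62 RPKM, followed by KDM5C at 53.3 ± 1.15 and RIOX1 at 21.9 ± 0.783. KDM1B (10.9 ± 0.431) and RCOR1 (10.8 ± 0.294) overlapped each other. KDM5B (8.93 ± 0.045), KDM2B (8.80 ± 0.228) and KDM5A (8.52 ± 0.207) also overlapped with their neighbours, and RCOR3 was lowest at 6.24 ± 0.167. In MGO libraries KDM5C was highest at 72.0 ± 1.90 RPKM, then KDM1A at 62.8 ± 1.23, KDM5B at 32.0 ± 1.04 and KDM5A at 17.2 ± 0.598. RCOR1 (12.7 ± 0.780), RIOX1 (10.3 ± 1.09) and RCOR3 (7.34 ± 0.366) followed without overlap, and KDM1B (6.03 ± 0.172) and KDM2B (5.66 ± 0.376) overlapped at the bottom. KDM5B thus moved from the sixth to the third place and KDM1A and KDM5C exchanged the top places. Over exons of all annotated transcripts, the lengths grow unevenly (KDM5B from 14003 to 25882 bases), and KDM5B took the seventh place in untreated and again in the third place in MGO. Levels between genes are therefore approximate.

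Genes with patterns most like those at either end were sought among 10872 genes averaging 5 CPM or more, by distance over the 6 libraries on the log2 CPM scale. Nearest to KDM5B were ARIH1, a ubiquitin ligase (106 to 379 CPM, distance 0.0705), EPC1, a subunit of the NuA4 acetyltransferase complex (21.2 to 77.7 CPM, 0.0732), and MAP1LC3B, an autophagosome protein (134 to 485 CPM, 0.0777). Nearest to RIOX1 were SIPA1, a Rap GTPase-activating protein (18.1 to 8.47 CPM, 0.0836), ZDHHC7, a palmitoyltransferase (83.7 to 40.4 CPM, 0.0883), and CCDC71 (20.2 to 9.66 CPM, 0.0988). With 3 libraries against 3, a near pattern mostly means a change of like size.

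Genes that work with the 9 members moved in both directions. Of 17 partners of KDM1A and CoREST, 7 rose, 7 fell and 3 missed the threshold, where 83.1% of all genes tested were called. The median log2 fold change of these partners was 0.03. The repressors CTBP1 (90.0 to 48.6 CPM) and CTBP2 (108 to 61.4 CPM) and the deacetylase HDAC1 (221 to 132 CPM) fell, as KDM1A did, and SNAI1, which recruits KDM1A, rose from 1.23 to 14.0 CPM. HDAC2 (501 and 484 CPM) and REST, the repressor of neuronal genes that binds RCOR1 (51.7 and 52.7 CPM), did not pass (adjusted p = 0.162 and 0.594). Of 11 partners of KDM5 enzymes 5 rose and 6 fell, where 83.1% of all genes tested were called in one direction or the other. The largest change there was in EMSY, which shares a complex with KDM5A (16.0 to 42.3 CPM, log2 fold change 1.40), while the histone-binding subunits RBBP4 (363 to 239 CPM) and RBBP7 (805 to 582 CPM) and the chromodomain protein MORF4L1 (513 to 361 CPM) fell. Of 9 subunits of the variant Polycomb complex of KDM2B 6 rose and 3 fell, beside 41.8% higher and 41.2% lower over all genes tested. The 3 that fell did so slightly (BCOR -0.21, BCORL1 -0.12 and USP7 -0.11 on the log2 scale). SKP1, the linker of F-box proteins, was near the threshold (log2 fold change 0.09, adjusted p = 0.0483), and 5 subunits rather than 6 were higher when any 1 library was left out. PCGF1, the subunit that sets this complex apart, rose from 8.01 to 17.2 CPM, RYBP from 68.6 to 122 CPM, YAF2 from 27.9 to 43.6 CPM, RING1 from 49.3 to 66.4 CPM and RNF2 from 60.3 to 82.2 CPM.

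Of 26 genes with REST binding sites (RE1), which CoREST complexes can silence, 23 passed the filter. Of these, 10 were higher, 6 lower and 7 not called, beside 41.8% higher and 41.2% lower over all genes tested. Several of the RE1 genes were near the detection limit and may have passed through 1 group, so these counts support nothing by themselves. NEFL, a neurofilament gene, fell from 165 to 38.1 CPM, while VGF (1.32 to 21.2 CPM), GAD1 (3.60 to 16.6 CPM) and SCG2 (0.162 to 3.75 CPM) rose. Among genes of cofactor supply, 10 of 12 passed the filter, 5 rose and 4 fell, where 83.1% of all genes tested were called. IDH1, a source of 2-oxoglutarate in the cytosol, fell from 132 to 13.9 CPM, and RFK, the riboflavin kinase on the way to FAD, from 75.3 to 41.3 CPM. FLAD1, which completes FAD, rose from 54.9 to 115 CPM and the riboflavin transporter SLC52A2 from 42.7 to 69.9 CPM.

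Of 16 JmjC proteins outside the members, 11 rose, 4 fell and 1 missed the threshold, beside 41.8% higher and 41.2% lower over all genes tested. Their median log2 fold change was 0.44, and 9 to 12 of them were higher over the alternatives tried. Among the members that are JmjC proteins, the 3 KDM5 genes rose while RIOX1 and KDM2B fell. The H3K27 demethylases KDM6B (27.6 to 175 CPM, log2 fold change 2.66) and KDM6A (103 to 353 CPM, 1.78) rose, as did JMJD6 (44.2 to 152 CPM, 1.78) and JMJD1C (24.0 to 79.2 CPM, 1.72), beside 1.84 for KDM5B. Of 11 H3K4 methyltransferases 9 passed the filter, 8 of them higher and SMYD2 lower (44.7 to 25.2 CPM), with a median log2 fold change of 0.53. KMT2C, KMT2A and KMT2D had log2 fold changes of 1.60, 1.39 and 0.80. Counts and medians here are descriptions, and no difference between lists was tested.

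**Figure D4:**
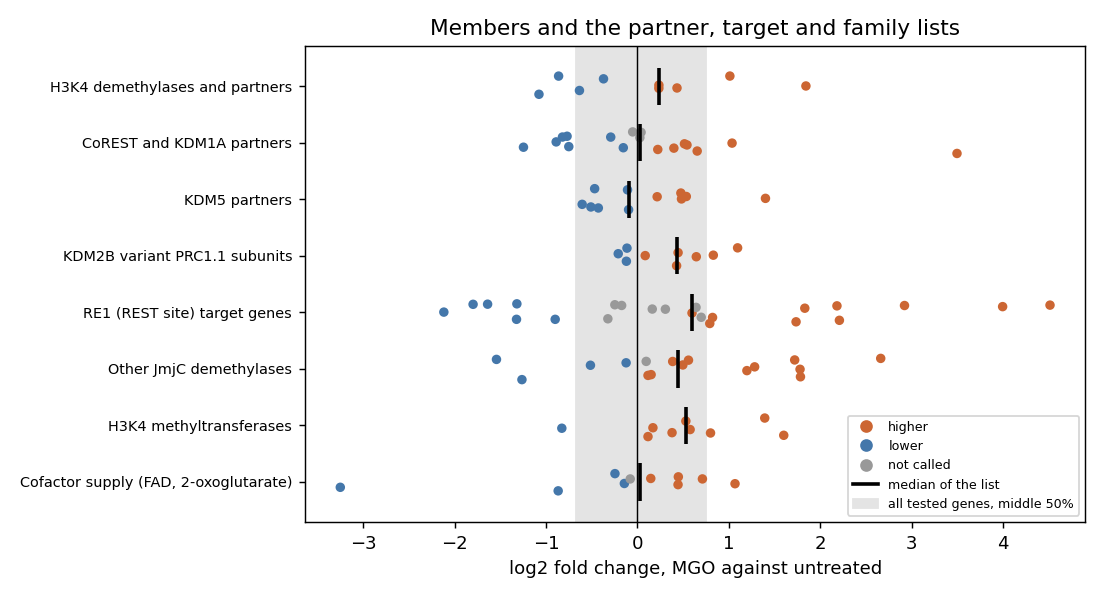
Log2 fold change of MGO against untreated (horizontal axis) for every tested gene of the 9 members and the 7 lists beside them, orange where called higher, blue where called lower and grey where not called. Black bars are list medians and the grey band is the middle 50% of all genes tested. Every list holds genes on both sides of 0, and list medians run from -0.10 (KDM5 partners) to 0.60 (RE1 target genes). Several RE1 genes were near the detection limit and may have passed the filter through 1 group, so that median supports nothing by itself.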

How the data were processed

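Poly(A) RNA was sequenced as paired reads of 100 bases, per the labels' protocols. Each library has 1 deposited table of raw, not normalized counts by gene symbol, per the file headers. The build was hg38 and the tools named are HTSeq 0.9.1, STAR 2.4, Trim Galore and Picard, per the submitters' processing notes. Settings, annotation and strand use are not given in the sources.

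The 6 libraries were fitted together in R 4.3.3 with edgeR 4.0.16 (filterByExpr, TMM, robust glmQLFit, two-sided glmQLFTest, 4 residual degrees of freedom, Benjamini-Hochberg at 0.05 over 17415 genes). The SE is the size of the log2 fold change divided by the square root of F. Log2 CPM used a prior count of 2. Rows with a date as name (29) were tested and not named. Chi-square per degree of freedom between libraries of a group was 1.88 to 14.7, where sampling noise gives about 1, so none was counted as a repeat. The test was tried on simulated data with far fewer changed genes than were called here, so that trial does not cover a change this broad. Coordinates and exon overlaps come from GENCODE release 29 and promoters from RefSeq, both on GRCh38. Alternatives included limma 3.58.1 (voom) and DESeq2 1.42.0. Named genes are the 9 members, genes overlapping them, the 3 nearest patterns to the largest rise and fall, and up to 4 called genes per list by smallest p. HDAC2, REST, RCOR2, PCGF1, BCOR, BCORL1, USP7 and SKP1 fall outside this rule and were chosen after their values were seen. GLO1 and the cell type markers (EPCAM, CDH1, KRT8, KRT18, KRT19, GATA3, PAX2, PAX8, COL1A1) are named as checks outside the rule. The markers are from lists set for that purpose. Members and lists were chosen with earlier results of these data known.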

Additional observations from a re-analysis of the deposited data

How the results depend on the processing

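Each of the 9 genes kept its direction under all 18 alternatives, and leaving out any library kept 5 members higher and 4 lower. The test against a fold of 1.5 uses the main estimates, so it could not change a direction. In every alternative, levels are relative to the other RNA of a library, so a shift shared by most genes would not show. Log2 fold changes over these leave-one-out fits ran from 1.78 to 1.84 for KDM5B, 0.95 to 1.02 for KDM5A, 0.37 to 0.44 for KDM5C and -1.20 to -1.03 for RIOX1. With library size as the only scaling, the median of all genes tested went from 0.01 to -0.10. Relative to that median KDM5B stayed at 1.84 and RCOR1 at 0.23. That is so by construction, since a change of scaling moves all genes by nearly the same amount. With no filter on low counts 3 members were higher, RCOR1 (log2 fold change 0.0519) and RCOR3 (0.0522) no longer passing (adjusted p = 0.346 and 0.425). Without that filter, 5 partners of KDM1A and CoREST were higher and 10 lower. Over all 35722 genes then tested, 8861 were higher and 8739 lower. Against a fold of 1.5, 2 members were higher and 2 lower, beside 4363 higher and 3942 lower of all 17415 genes tested. The values not passing there were unchanged by construction, at 0.43 for KDM5C, -0.37 for KDM1A, -0.63 for KDM2B and 0.23 for RCOR1 and RCOR3. The log2 ratio of RCOR1 to RCOR3, near 0, changed sign when libraries were left out (-0.0296 to 0.0250) and, at 0.0167, when untreated counts were thinned to the depth of MGO libraries. With at least 1 CPM in every library, fewer genes were tested (12790), 5474 of them higher and 5589 lower. The count lower was then 1 for the KDM2B complex and 2 for cofactor genes, with 5 higher and 3 lower RE1 genes. Numbers 1 and 4 occur in both groups, but deviations of same-numbered libraries correlated at only 0.02 and -0.01 over genes. With the replicate number as a block, 6778 genes were higher and 6673 lower, and the count lower in the KDM2B complex was 1, as it was with thinned libraries. For KDM5 partners, the count lower went from 6 to 4 under RLE scaling, DESeq2, the block, thinning and the filter of 1 CPM. The causes of these shifts were not tested. All 9 members kept their calls under the block.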
